A study of Homo sapiens with 4 samples.

Results

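The EGF receptor family and its ligands were read in U87TR-Da cells, which derive from U87MG, a line of human glioblastoma, and in which doxycycline can induce DACH1, a nuclear repressor of transcription. The genes were chosen by name: the receptors EGFR, ERBB2 and ERBB3, the ligands EGF, TGFA, HBEGF, AREG, EREG and BTC, and the receptor inhibitor ERRFI1. This choice was made with earlier results of these data known. Of these 10 genes, 9 had at least 1 probe set assigned to that gene alone, 30 probe sets of 41091 in all, and 9 genes of 19775. AREG had no such probe set in the annotation used and is not analysed here. There were 4 conditions, each measured on 1 array of total RNA: DACH1-silenced and DACH1-induced cells in DMEM with 10% fetal bovine serum, and the same pair of states in Neurobasal medium without serum, with EGF, basic FGF and the supplements N-2 and B-27. Exposure to 1 µg/mL doxycycline for 72 h is stated for all 4 samples alike. How DACH1 was kept silent in the silenced cells, and whether the line is a single clone, is not given in the labels. Serum and serum-free medium stand here for the labels of the arrays.

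The receptors of this family are tyrosine kinases at the cell surface that pair when a ligand binds and then signal through RAS and ERK, PI3 kinase and STAT proteins. EGF, TGF-alpha, amphiregulin, heparin-binding EGF, epiregulin and betacellulin are made as membrane-bound precursors and are released by metalloproteases of the ADAM family, and they bind EGFR, some of them ERBB4 too. ERBB2 has no known ligand of its own, and ERBB3, a receptor for neuregulins, has little kinase activity. ERRFI1 encodes MIG6, a protein induced by the pathway that binds the EGFR kinase and blocks it. EGFR is among the genes most often amplified or mutated in glioblastoma, and added EGF is a usual part of serum-free media for glioma cells.

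Signals are MAS5 intensities per probe set on a linear scale. A signal is compared only with the same probe set on another array, since brightness differs between probes. Before a fold was taken, a floor of 10.9 was set, which 40% of all signals lay under or at, and a fold against the floor is given as "at least". The median of all signals was 17.2, and the array medians ran from 15.7 to 19.3. The brightest of 3 DACH1 probe sets read 126.0 and 4431 on the silenced and induced serum arrays and 32.5 and 875.1 on the serum-free ones. The other 2 were dim and did not show the induction: 1 read 23.1 and 24.7, then 12.1 and 2.9, and the other read at most 8.3. The glioma-associated genes VIM, CD44 and TNC were bright on every array (3165 or more). From the same list, NES (19.6 to 35.8), CDKN2A (20.1 to 32.8) and CHI3L1 (21.4 to 103.1) were dim. OLIG2 read 58.4 and 79.9 in serum and 12.2 and 12.3 in serum-free medium, a fall of 5.58-fold (limma adjusted p 0.017). GFAP and S100B, markers of astrocytes, and SOX2 lay under the floor on all 4. Markers of other cell types were low apart from SNAP25. The summed signal of 6 epithelial genes ran from 21.6 to 60.0 and that of 4 immune genes from 14.7 to 41.4. That of 4 endothelial genes ran from 54.3 to 82.6, with TEK (16.1 to 34.9) called 1.91-fold higher in serum-free medium (limma adjusted p 0.0414). That of 3 oligodendrocyte genes ran from 30.8 to 41.7. The sum of 4 neuronal genes, from 85.7 to 394.7, came mostly from SNAP25. SNAP25 read 160.2 and 68.6 in serum and 370.3 and 352.5 in serum-free medium, 3.45-fold higher (limma adjusted p 0.0349). The 5 genes of dividing cells all rose in serum-free medium by limma, and of 7 actin and serum response genes 4 rose and 1, SRF, fell. The part of these shifts in the values of the EGF family was not tested. With 1 array per condition no spread between cultures was measured, and in RNA from whole cultures fewer cells with a transcript and less transcript per cell cannot be told apart.

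The ligand genes EREG, HBEGF and TGFA carried the widest differences, so the 250 bases before their start sites are shown first, from RefSeq (GRCh38.p14), written on the strand of the gene. Capitals mark matches, on either strand, to 7 motifs. TGANTCA stands for AP-1. The motif of CREB, named CRE, is TGACGTCA. A GC box, which Sp1 binds, is GGGCGG. The TATA box was searched as TATAAA. The motif of ETS factors was searched as CCGGAA, and shorter forms were not searched. NF-kB and CArG were searched by their consensus.
EREG, chr4:74364895-74365144, plus strand: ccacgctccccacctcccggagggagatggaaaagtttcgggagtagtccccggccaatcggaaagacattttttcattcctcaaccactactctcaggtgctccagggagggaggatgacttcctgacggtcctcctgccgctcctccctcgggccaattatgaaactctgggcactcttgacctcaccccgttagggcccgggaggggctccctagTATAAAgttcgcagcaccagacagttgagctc
HBEGF, chr5:140346604-140346853, minus strand: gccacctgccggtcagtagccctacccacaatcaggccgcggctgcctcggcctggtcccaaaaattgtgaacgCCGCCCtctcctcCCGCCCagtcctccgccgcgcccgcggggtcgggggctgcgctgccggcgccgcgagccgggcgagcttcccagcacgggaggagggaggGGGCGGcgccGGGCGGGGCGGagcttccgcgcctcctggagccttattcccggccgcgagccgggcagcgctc
TGFA, chr2:70553827-70554076, minus strand: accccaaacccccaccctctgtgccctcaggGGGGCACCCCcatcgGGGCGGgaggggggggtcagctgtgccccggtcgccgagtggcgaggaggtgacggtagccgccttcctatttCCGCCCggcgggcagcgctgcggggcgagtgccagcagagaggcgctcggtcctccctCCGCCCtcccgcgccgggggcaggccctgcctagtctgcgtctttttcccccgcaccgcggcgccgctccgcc

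The EREG window held 1 match, a TATA box from 32 to 27 bases before the start, a motif found in 10.7% of the 35116 windows of this length in the table. The HBEGF window held 5 GC boxes and the TGFA window 3, and 42.6% of all windows hold at least 1. Of the 5 in HBEGF, 2 share a base. TGFA also held 1 NF-kB match from 219 to 210 bases before the start, against 5.21% of all windows. None of the 3 windows held the letters of AP-1 (6.57% of all windows), CRE (1.65%), CCGGAA (14.5%) or CArG (1.16%). This says only that these letters are not in these windows. The GC content was 58% for EREG, 76.4% for HBEGF and 75.6% for TGFA. EREG lies on chromosome 4, where AREG and then BTC are the next protein-coding genes in the RefSeq gene table.

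EGFR was the only receptor of the family with signals far above the floor. Its brightest probe set read 481.1 on the silenced and 766.8 on the induced serum array, and 1280.8 and 1178.2 on the serum-free arrays. The silenced serum array was thus the lowest, and both serum-free arrays lay above both serum arrays. The signal was 1.59-fold higher with DACH1 induced in serum and 1.09-fold lower in serum-free medium. Between media it was 2.66-fold higher in serum-free medium in silenced cells and 1.54-fold higher in induced cells.

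The 9 probe sets of EGFR did not give 1 value for this. A second bright probe set, 224999_at, read 459.5 and 673.2 in serum and 638.0 and 553.7 in serum-free medium. It was 1.39-fold higher in serum-free medium in silenced cells and 1.22-fold lower in induced ones, so the order of the media in induced cells depends on the probe set. Another, 201984_s_at, was 1.45-fold and 1.12-fold higher in serum-free medium. The steepest were 210984_x_at (55.5 and 75.0 in serum, 210.9 and 139.8 in serum-free medium) and 211607_x_at (45.1 and 63.2, then 129.9 and 125.7), at 3.80-fold and 2.88-fold higher in silenced cells. Probe sets ending in _x_at can bind transcripts of other genes. Of the 6 EGFR probe sets at or above the median signal on all 4 arrays, 5 were higher with DACH1 in serum and 5 were lower with it in serum-free medium, the exception both times being 1565484_x_at, which stayed between 19 and 28.4. The remaining 3 were dim: 211551_at read 13.4 to 24.7, 1565483_at 5.2 to 22.6 and 211550_at 0.9 to 2.1. Where each probe set lies on the EGFR transcripts was not analysed here.

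**Figure D1:**
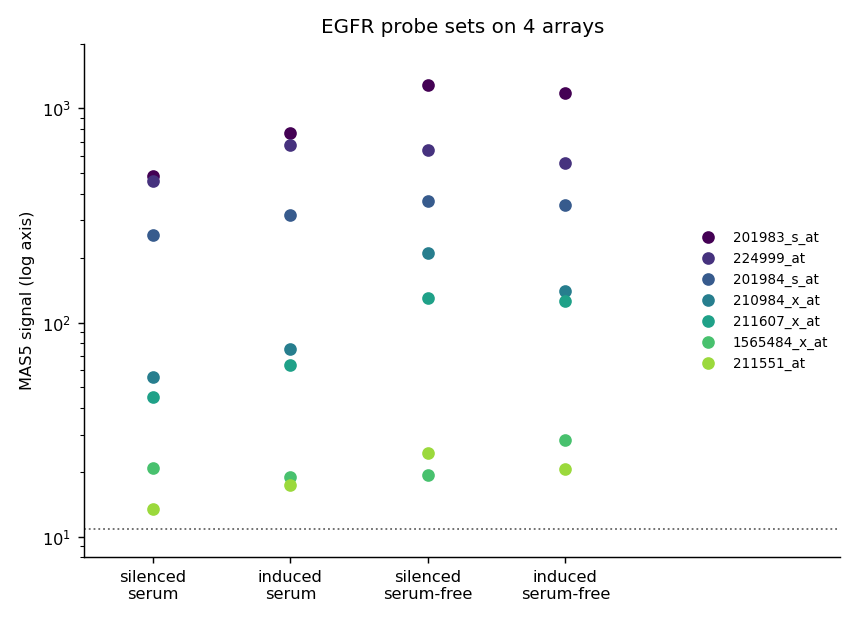
EGFR signal (MAS5, log axis) on each of the 4 arrays for the 7 probe sets that reached 10.9, the dotted line, on every array; each point is 1 probe set on 1 array. The brightest probe set, 201983_s_at, goes from 481.1 to 1280.8, while 224999_at stays between 459.5 and 673.2.

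ERBB2 and ERBB3 were dim. The brightest of 3 ERBB2 probe sets read 23.2 and 12.6 in serum and 19.7 and 29.2 in serum-free medium, and the other 2 reached at most 8.2. The brightest of 5 ERBB3 probe sets read 6.1 and 18.6, then 17.3 and 16.1, and the other 4 reached at most 13.1. Both genes stayed within 12.6 to 29.2 and 6.1 to 18.6, close to the floor, and no order of conditions is read from them. ERBB4, the fourth receptor, lay under the floor on all 4 arrays (1.5 to 9.8).

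Among the ligands, EREG, which encodes epiregulin, spanned the widest range. Its brighter probe set read 2981.3 on the silenced serum array, 471.5 on the induced serum array, and 59.2 and 43.9 on the silenced and induced serum-free arrays. The 4 arrays differed by 6.09 on the log2 scale, a range that only 0.14% of the 12103 genes in the limma fit reached, which placed EREG 17th by range. With DACH1 induced it was 6.32-fold lower in serum and 1.35-fold lower in serum-free medium. Between media it was 50.4-fold lower in serum-free medium in silenced cells and 10.7-fold lower in induced cells. The other probe set, 1569583_at, read 71.2 and 11.6 in serum and 18.3 and 19.7 in serum-free medium. It was 6.14-fold lower with DACH1 in serum, near the value of the bright one, but 1.70-fold higher in serum-free medium in induced cells, from a signal next to the floor.

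HBEGF, the gene of heparin-binding EGF, was also highest in silenced cells in serum. Its brightest probe set read 485.7 and 331.2 on the silenced and induced serum arrays and 84.5 and 47.1 on the serum-free arrays. Both serum arrays lay above both serum-free arrays, and the signals were 5.75-fold lower in silenced cells and 7.03-fold in induced ones. A second probe set, 38037_at, gave 258.5 and 171.8, then 24.2 and 24.3, which was 10.7-fold and 7.07-fold lower. With DACH1 induced HBEGF was 1.47-fold and 1.79-fold lower in the 2 media by the first probe set, and 1.5-fold lower and equal within 1% by the second (24.2 and 24.3). The other 2 probe sets read at most 12.2.

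TGFA, the gene of TGF-alpha, went the other way with DACH1 in serum. Its brightest probe set read 109.5 in silenced and 725.8 in induced cells in serum, and 185.7 and 142.2 in serum-free medium. The induced serum array stood alone above the other 3. The signal was 6.63-fold higher with DACH1 in serum and 1.31-fold lower in serum-free medium. All 3 probe sets shared both directions: 205015_s_at read 19.1 and 103.1, then 34.8 and 20.0, and 211258_s_at read 33.9 and 131.2, then 51.3 and 44.1. Their log2 differences in serum were 1.95 to 2.73, and those in serum-free medium -0.80 to -0.22. Between media TGFA was 1.70-fold higher in serum-free medium in silenced cells and 5.10-fold lower in induced cells.

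EGF and BTC were dim. The single EGF probe set read 9.2 and 4.4 in serum, both under the floor, and 64.6 and 18.9 in serum-free medium, so it was at least 5.93-fold higher in serum-free medium in silenced and at least 1.73-fold in induced cells. The EGF that the serum-free medium contains is protein and is not measured by a transcript array. BTC, the betacellulin gene, read 29.5 and 9.0, then 15.9 and 15.1, and was at least 2.71-fold lower with DACH1 in serum. Its other probe set read 5.5 to 12.3. ERRFI1, the inhibitor, was bright and varied least: 1111.3 and 1063.7 in serum and 838.6 and 767.2 in serum-free medium, a range of 0.53 on the log2 scale that 74.3% of genes reached or exceeded. It was 1.33-fold lower in serum-free medium in silenced cells and 1.39-fold in induced ones.

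**Figure D2:**
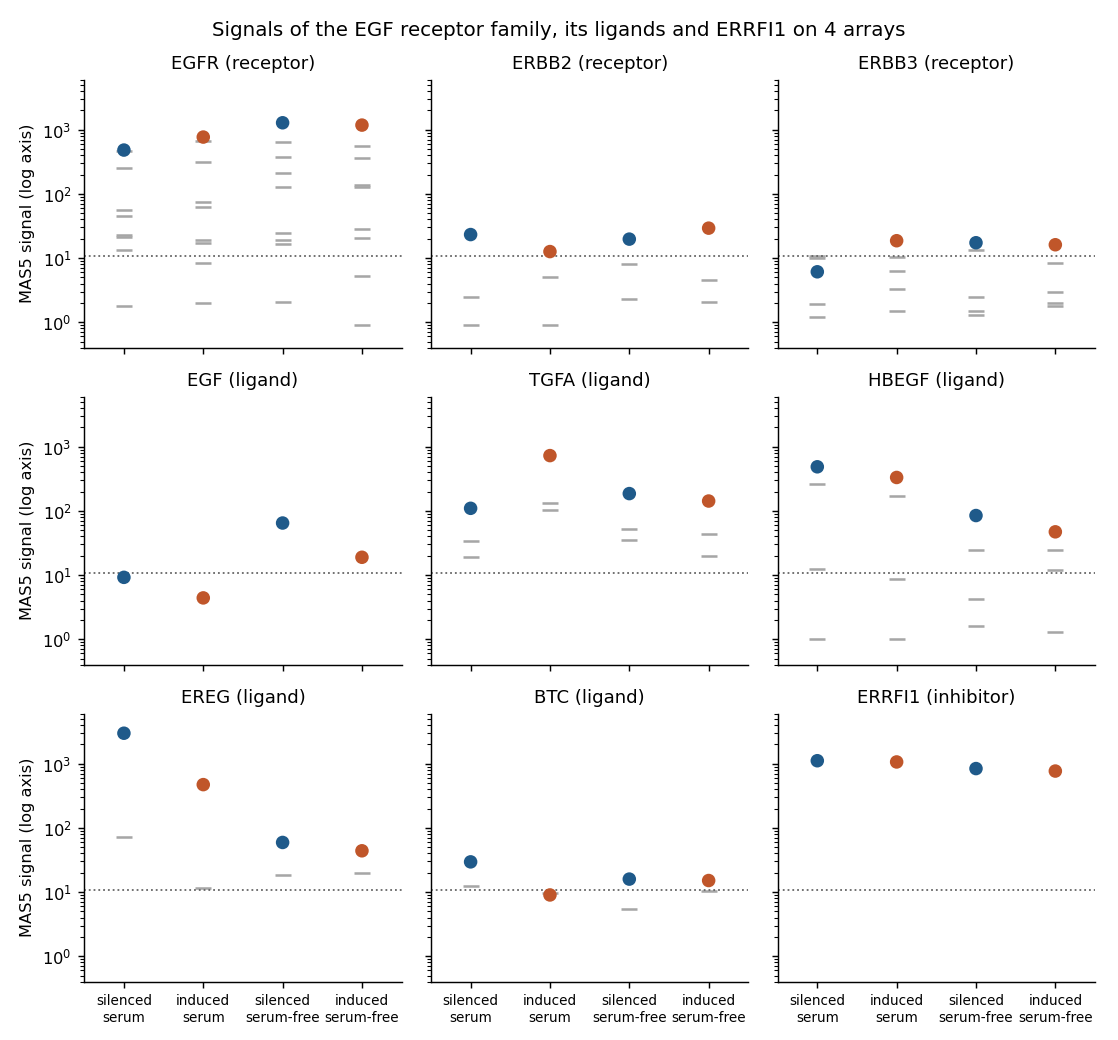
MAS5 signal (log axis) of the 9 genes on the 4 arrays; filled points are the brightest probe set of the gene (blue silenced, orange induced), grey dashes its other probe sets, and the dotted line the floor of 10.9. EREG goes from 2981.3 to 43.9 and HBEGF from 485.7 to 47.1, TGFA is highest on the induced serum array (725.8), and ERRFI1 stays between 767.2 and 1111.3.

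The first question of the design was what DACH1 induction does, in each medium. Of the 8 members compared in serum, TGFA was at least 2-fold higher (background 2.91% of 12190 genes higher) and EREG and BTC at least 2-fold lower (background 4.77% lower). Their median log2 difference was -0.31, beside 0.01 over all genes. In the serum-free arrays, 0 of 8 were at least 2-fold higher (background 1.02% of 12659 genes) and 1, EGF, was 3.42-fold lower (background 2.73%), from 64.6 to 18.9. The median was -0.26, beside -0.0024 over all genes. These single pairs have no replicate and no test.

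The only fit with an error was limma with the DACH1 state and the medium label as its 2 terms, which called 0.0% of 12103 genes between DACH1 states at an adjusted p of 0.05. DACH1 itself was among the genes not called, though its brightest probe set was 35.2-fold higher in serum and 26.9-fold higher in serum-free medium. So the lack of a call does not show the lack of a change. Of the 12103 genes, 585 had an unadjusted p under 0.05, no more than this threshold passes when no gene differs. With a trend in the variance prior limma called 1 gene. None of the 8 members fitted was called. HBEGF had the lowest unadjusted p among them, with a log2 difference of -0.70 (SE 0.19, limma adjusted p 0.931, lower in 2 of 2 induced arrays). EREG was at -1.55 (SE 0.59, limma adjusted p 0.931, lower in 2 of 2) and EGFR at 0.28 (SE 0.27, limma adjusted p 0.939, higher in 1 of 2). TGFA was at 1.17 with an SE of 0.81, which holds its opposite signs in the 2 media (limma adjusted p 0.931).

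The DACH1 difference in serum-free medium minus that in serum was -3.11 for TGFA on the log2 scale, the fourth lowest of the 12103 genes. It was 2.23 for EREG, 72nd from the highest. It was -0.79 for EGFR, -0.29 for HBEGF and -0.07 for ERRFI1. No array is left to give these an error. The induced DACH1 signal was 4431 in serum and 875.1 in serum-free medium, and its part in these differences was not tested.

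**Figure D3:**
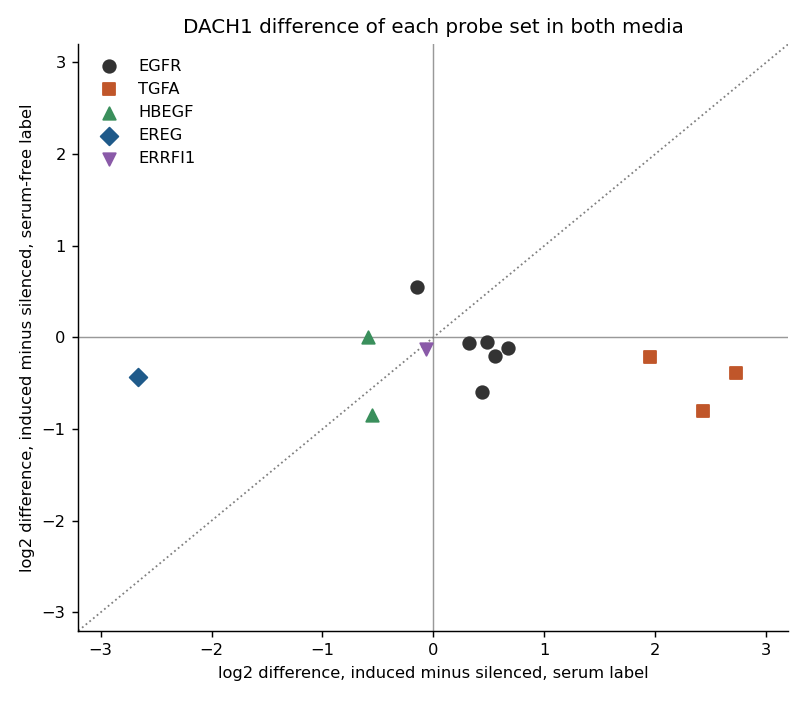
Log2 difference, DACH1-induced minus silenced, on the serum arrays (x) and serum-free (y); each point is a probe set at or above the median signal of 17.2 on all 4 arrays, and the dotted line marks equal differences. The 3 TGFA probe sets lie at 1.95 to 2.73 on the x axis and below 0 on the y axis, and the EREG probe set lies at -2.66 and -0.43.

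The second question was what the medium changes. EREG and HBEGF fell in serum-free medium. HBEGF fell by 2.67 on the log2 scale, or 6.36-fold (SE 0.19, limma adjusted p 0.0167, lower in 2 of 2 pairs), and EREG fell by 4.54, or 23.3-fold (SE 0.59, limma adjusted p 0.022, lower in 2 of 2 pairs). So 2 of 8 members were called lower, beside a background of 12.7% of 12103 genes, and 0 higher, beside 15.4%. With no filter on low signals limma called 0 genes at an adjusted p of 0.05, these 2 included (HBEGF 0.125, EREG 0.259). With all probe sets of a gene averaged HBEGF was at -1.45 and EREG at -2.57, and EREG missed at 0.0554. Over the 10 alternatives the limma adjusted p ran from 0.00266 to 0.125 for HBEGF and from 0.00564 to 0.259 for EREG. The fit takes its error from how far the DACH1 difference of single arrays varied with the medium, not from repeated cultures.

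EGFR and EGF missed the threshold on the other side. EGFR was 2.02-fold higher in serum-free medium (log2 1.02, SE 0.27, limma adjusted p 0.0602, higher in 2 of 2 pairs). Over the 10 alternatives the limma adjusted p ran from 0.0238 to 0.81, and it passed in 4 of them. Without probe sets ending in _x_at or _s_at, where 224999_at is the brightest one left and was used, its log2 difference was 0.10. EGF was at 1.68 on the log2 scale (SE 0.48, limma adjusted p 0.0711), with both serum signals under the floor and set to it, so this value depends on the floor. With no floor it was 2.46 and was called at 0.0361, and over the 8 alternatives that fitted EGF the limma adjusted p ran from 0.0224 to 0.459. ERRFI1 was at -0.44 (SE 0.18, limma adjusted p 0.139), TGFA at -0.79 (SE 0.81, limma adjusted p 0.492), ERBB2 at 0.49 and ERBB3 at 0.23. The median over the 8 members was -0.10, beside 0.02 over all genes.

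Counted at 2-fold without a test, EGFR and EGF were higher and HBEGF and EREG lower in serum-free medium among 9 members in silenced cells, beside 15.3% of 12906 genes higher and 12.2% lower. In induced cells the count holds ERBB2 as higher, from signals next to the floor (12.6 and 29.2). Its log2 difference was 1.21, but 0.77 and outside the count with a pseudocount in place of the floor. It holds TGFA, HBEGF and EREG as lower, among 8 members, beside 14% of 12371 genes higher and 10.1% lower. The pairs for the medium use the same 4 arrays as those for DACH1, so these values are not further evidence on them.

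The rest of the pathway was read from 5 lists of 67 genes, of which 60 had a probe set of their own and 55 were fitted. Limma called 5 of them higher and 20 lower in serum-free medium, and 0 between DACH1 states. That is 9.09% higher and 36.4% lower, beside 15.4% and 12.7% of all genes. The lists were chosen with earlier results of these data known, so their shares are not independent evidence. The largest group of falls was among ERK targets, genes that growth factor signalling can switch on, some of them quickly. All 15 were below 0, with a median log2 difference of -1.38, and 11 of 15 fell, with 0 rising. With no floor 8 of 15 were called, and with no filter on low signals none of these lists had a call. DUSP6, a phosphatase that switches ERK off, fell 37.4-fold (2383.3 and 1012.2 in serum, 45.3 and 38.1 in serum-free medium, limma adjusted p 0.0167). EGR1, an immediate early transcription factor gene, fell 28.3-fold (1284.3 and 1570.8, then 66.4 and 38.0, limma adjusted p 0.0167). FOS read 84.6 and 109.5 and lay under the floor on both serum-free arrays, at least 7.76-fold lower in silenced cells and at least 10.0-fold in induced ones. With probe sets averaged EGR1 was 10.02-fold lower. These falls stood in the arrays whose medium, per the labels, contained EGF and basic FGF. The media also differed in serum, base medium and supplements, and the part of each in these falls was not tested.

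The list of genes for turnover of the receptor, or for restraint of it or the pathway below it, had a median of -0.88. In it 7 of 15 were called lower and 1 higher, beside 12.7% and 15.4% of all genes. The list does not hold restraint alone, and the 7 include USP8, a deubiquitinase gene (2.01-fold lower, limma adjusted p 0.0312). When the probe sets of a gene were averaged the median was -0.26, with 3 of 13 lower and 2 higher, and with no floor 4 of 15 were lower and 0 higher. SPRY2, a Sprouty antagonist of growth factor signalling, fell 11.9-fold (1312.9 and 2509.9 in serum, 137.9 and 168.8 in serum-free medium, limma adjusted p 0.0167). SOCS3, an inhibitor of cytokine signalling, fell 7.49-fold (418.6 and 248.3, then 37.0 and 50.1, limma adjusted p 0.0203). CBL, the ubiquitin ligase that marks EGFR for degradation, fell 2.32-fold (354.8 and 337.5, then 165.7 and 134.5, limma adjusted p 0.0265). SH3GL1, an endocytosis protein gene, rose 1.94-fold (246.3 and 206.2, then 447.3 and 427.6, limma adjusted p 0.0351), a call lost with no floor. With probe sets averaged SOCS3 was 2.4-fold lower, and CBL, at 1.44-fold lower, was not called.

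Adaptors and kinases had a median of 0.50, with 3 of 17 called higher (17.6%, beside 15.4% of all genes) and 1 lower (5.88%, beside 12.7%). MAPK3, which encodes the kinase ERK1, rose 2.73-fold (73.0 and 100.9 in serum, 244.1 and 224.8 in serum-free medium, limma adjusted p 0.0275), AKT1 rose 1.92-fold (limma adjusted p 0.0352) and HRAS 1.92-fold (limma adjusted p 0.0372). With no floor MAPK3 was the 1 gene of this list called higher. GAB2, a docking protein gene, fell 2.23-fold (61.9 and 72.2, then 25.4 and 35.5, limma adjusted p 0.0286). The probe set used for MAPK3 ends in _x_at, and those for AKT1 and GAB2 end in _s_at. Without probe sets of these kinds MAPK3, AKT1 and GAB2 were not fitted. Among 7 genes of ligand release 1 was called higher, or 14.3% beside 15.4% of all genes. This count depends on the setting. With a pseudocount equal to the floor 3 of 7 were called higher and 0 lower, with 3965 in place of 3396 genes called in all. With a trend in the variance prior 3 were higher and 1 lower, and with no filter on low signals 0 were called. ADAM12, a metalloprotease that can shed heparin-binding EGF, rose 7.87-fold (243.7 and 158.3, then 1597.0 and 1495.6, limma adjusted p 0.0169), or 3.83-fold with probe sets averaged. ADAM17, the main sheddase of TGF-alpha, read 267.6 to 323.1 and ADAM10 read 1235.1 to 2345.3, and neither was called. ADAM10 (1.63-fold higher, limma adjusted p 0.0586) and ADAM9 (1.68-fold higher, limma adjusted p 0.0535) missed the threshold narrowly. Of the other ligands of the family only NRG1, a neuregulin gene that signals through ERBB3 and ERBB4, was fitted. It read 714.2 and 272.5 in serum and 110.6 and 123.1 in serum-free medium and fell 3.78-fold (limma adjusted p 0.0448). That call was lost with no floor, and the fall was 2.1-fold without probe sets ending in _x_at or _s_at and 2.51-fold with probe sets averaged.

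**Figure D4:**
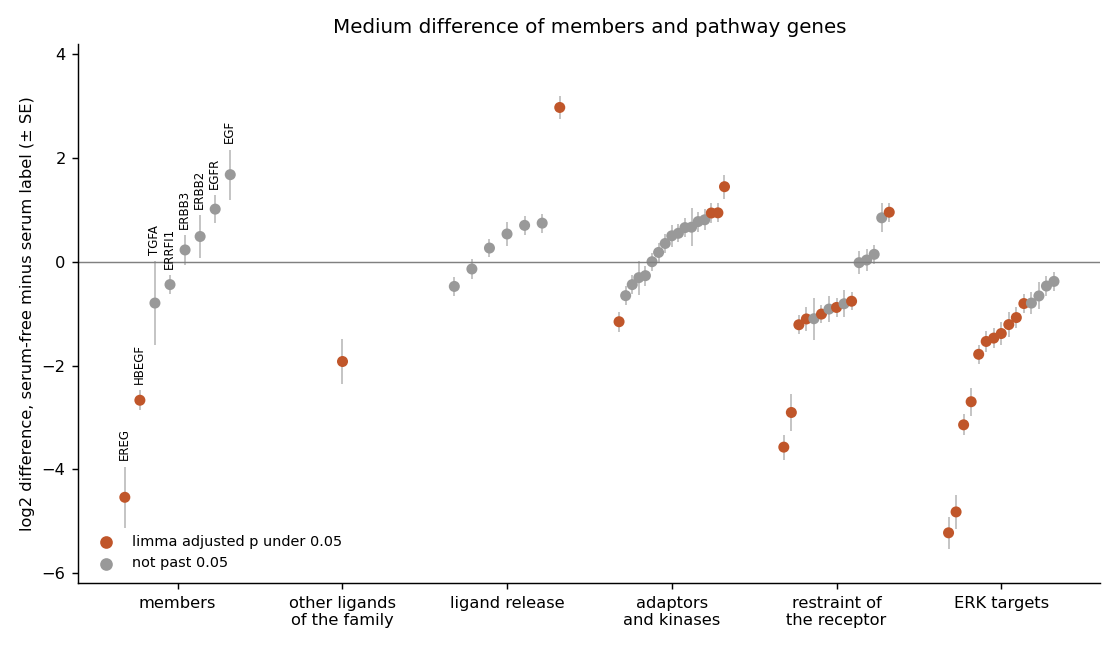
Limma log2 difference, serum-free minus serum label, with its standard error, for 8 members and 55 pathway genes in 5 lists, ordered by value within each list; orange points have an adjusted p under 0.05. EREG (-4.54) and HBEGF (-2.67) are the members past the threshold, and 11 of the 15 ERK targets are orange and below 0.

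Between DACH1 states no gene of these lists was called, so only values are given. The largest with 1 sign in both media were DUSP6, 2.35-fold lower in serum and 1.19-fold lower in serum-free medium, CBLB, 1.41-fold and 1.86-fold lower, SRC, 2.47-fold and 1.01-fold higher, and SPRY2, 1.91-fold and 1.22-fold higher. The ERK targets had a median log2 difference of 0.30 in serum, with 1 of 15 at least 2-fold lower (DUSP6) and 0 higher, and 0.07 in serum-free medium. NRG1 was 2.62-fold lower with DACH1 in serum and 1.11-fold higher in serum-free medium.

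The genes most like a member were taken by the root mean square distance between log2 signals, each centred on its own mean over the 4 arrays. For EGFR they were MET, a receptor tyrosine kinase gene (distance 0.03, with 853.5 and 1413.2 in serum and 2264.3 and 2155.5 in serum-free medium), ORMDL2 (0.03) and ABCA7 (0.04, signals of at most 30.9). For EREG, the ligand with the widest range, they were LSAMP, a cell adhesion gene (distance 0.19, with 602.4 and 119.2, then 7.4 and 8.6), the protease gene ADAMTS5 (0.30, with 2681.0 and 393.2, then 77.6 and 57.5) and PNLIPRP3 (0.34). The likeness rests on 4 arrays and on the brightest probe set of each gene, and the EGFR probe set 224999_at had another order of arrays. Signals under the floor were set to it before the distance was taken. That held for both serum-free signals of LSAMP and for PNLIPRP3 in silenced cells in serum-free medium (7.3).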

How the data were processed

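The data are 4 arrays of total RNA (6 µg for labelling, per the labels' protocols), 1 per condition. The deposited values are linear signal intensities, 1 for each probe set. MAS5 made them, per the submitters' processing notes, in a version not given there. No detection calls were used. Probe sets were named from GEO's platform annotation, and 99.9% of symbols were brought up to date by Entrez identifier. Of 54613, 41091 had 1 gene, 1801 several and 11721 none listed. For each of 19775 genes the brightest probe set by mean log2 was used. Signals under the 40th percentile were set to it. A gene entered a pair if 1 array, and the fit if 2 of 4 arrays, reached the median of all signals. Counts used 2-fold. Limma (lmFit, eBayes, Benjamini-Hochberg, 12103 genes, 1 residual degree of freedom) had DACH1 state and medium label as terms and was tested on simulated data. In those data the DACH1 change was the same in both media, so they do not show how the fit performs on these arrays. No label speaks of repeated cultures, and the limma p-values cover the spread among these 4 arrays alone, which may be technical. The members and lists were chosen with earlier results of these data known. Named were all members, per pathway list up to 3 genes called in each direction, the 3 with the largest DACH1 difference of 1 sign in both media, of which the text gives a part, and the 3 genes most like EGFR and EREG. ADAM9, ADAM17, ERBB4, USP8, the marker genes named and NRG1 between DACH1 states fall outside this rule and were named after their values were seen. Alternatives are given in the closing section. Limma was version 3.58.1 under R 4.3.3. Tables were made with pandas 2.3.3 and numpy 2.4.6 in Python 3.11.15, and plots with matplotlib 3.10.9.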

Additional observations from a re-analysis of the deposited data

Results flagged for a closer look

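The DACH1 difference had opposite signs in the 2 media for 3 members with signals above the floor on all 4 arrays. For TGFA the difference in serum-free medium minus that in serum was -3.11 on the log2 scale, for ERBB2 1.45 and for EGFR -0.79. With 1 array per condition the difference was not tested. The induced DACH1 signal also differed between the media (4431 in serum, 875.1 in serum-free medium). The ERBB2 signals were 12.6 to 29.2, next to the floor, and the sign of EGFR in serum-free medium rests on 1280.8 against 1178.2.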

How the results depend on the processing

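Between DACH1 states limma called 1 gene with every array above the median signal and 1 with a trend in the variance prior, and 0 under the other 8 alternatives; no member was called under any of the 10. Between media the 3396 genes called became 2013 with no floor, 0 with no filter on low signals and 6798 in the fit over all one-gene probe sets (of 23629). The 2 members called became 4 with a pseudocount equal to the floor (EGFR and EGF added), 0 with no filter and 1 when the probe sets of each gene were averaged (HBEGF). EREG and HBEGF were below 0 between media under all 10, from -5.65 to -2.57 and from -2.81 to -1.45 with the single pairs included. The 1 member at least 2-fold different between DACH1 states in serum-free medium, EGF, became 0 with a floor of 50 joined to a minimum of 100 for a gene to enter, and with every array above the median; both filters leave EGF out. With that floor and minimum together, over 7594 genes in place of 12103, the medium calls split 1833 higher and 1936 lower, against 1862 and 1534. Leaving out 1 array leaves 1 complete pair and no test. Between DACH1 states the log2 difference then ran from -0.12 to 0.67 for EGFR, from -0.88 to 0.57 for ERBB2, from -0.10 to 0.77 for ERBB3 and from -0.39 to 2.73 for TGFA. Between media it ran from -0.24 to 1.21 for ERBB2, from -0.21 to 0.67 for ERBB3 and from -2.35 to 0.76 for TGFA. The cause was not tested. The limma fit compares DACH1 states within each medium, so it already pairs the arrays by medium. With 1 array per condition no replicate number links arrays in another way. Signals near the floor limit EGF, BTC, ERBB2 and ERBB3.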
